A study of Mus musculus with 14 samples.

Results

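The semaphorins, plexins, Slits, Robos, netrins, Unc5 receptors, ephrins and Eph receptors were followed across osteoblasts and endothelial cells sorted from the bone marrow of mice given G-CSF or left untreated. Members were taken by gene symbol, netrins by Ntn and a number. Every matching gene entered that had a probe set which the array's annotation gives to it and to no other gene. The choice of members was made with earlier results of these data known. The rule found 66 genes with 141 probe sets, of 18193 genes with such a probe set, and the probe set with the highest mean over the 14 arrays stood for its gene. Of the 66 genes, 56 passed a filter on dim probe sets and were among the 13450 genes tested.

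These families were named for steering growing axons and also guide vessels and migrating cells. Semaphorins signal through plexins, and the secreted semaphorins of class 3 mostly bind a neuropilin that acts beside the plexin. Secreted Slits act on Robo receptors, netrins act on Dcc, neogenin and the Unc5 receptors, and ephrins on a cell's surface bind Eph receptors on its neighbour. In vessels ephrin-B2 is a marker of arteries and EphB4 of veins, and plexin D1 and Robo4 are receptors of endothelial cells. In bone, Sema3a, Sema4d and the pair of ephrin-B2 and EphB4 are known for signals between osteoblasts and osteoclasts.

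All mice were wild type C57BL/6J animals carrying the pOBcol2.3-GFP transgene, 6 to 8 weeks old, and none of the groups lacks the transgene. Osteoblasts after G-CSF (3 arrays) and untreated osteoblasts (3 arrays) were sorted as GFP+ cells without CD45, ter119 or CD31. Endothelial cells after G-CSF (4 arrays) and untreated endothelial cells (4 arrays) were sorted as CD31+ cells without CD45, ter119 or GFP. The GFP is driven by part of the type I collagen promoter, so the osteoblast sort holds the cells in which that fragment is active. G-CSF, the cytokine that expands neutrophils and mobilises blood stem cells out of the marrow, was injected under the skin at 250 ug per kg, for 5 days by the array titles. For the untreated mice the protocols name vehicle over 7 days. Nothing in the labels ties replicates to separate animals, so each p-value measures the spread between these arrays, which may be technical, and the small number of arrays limits the precision.

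Values are log2 of the deposited intensity plus 16, and a call is an adjusted p under 0.05 in limma's moderated test, with Benjamini-Hochberg adjustment over all 13450 genes. Every adjusted p is from that fit unless another is named. A difference is given as log2 ± its SE, and levels of different genes are not set against each other because probe sets differ in brightness. The medians of the arrays ran from 6.57 to 7.13, and correlation between arrays from 0.845 to 0.97. All 20 endothelial markers were lower in the osteoblast sort in both treatment states, while 13 of 14 osteoblast markers were higher there after G-CSF and 7 of 14 in the untreated mice. Of 12 fibroblast and tendon markers 10 were also higher there after G-CSF and 7 untreated. Of 10 adipocyte and reticular markers 5 were higher and 2 lower there untreated, and 3 and 3 after G-CSF. Skeletal muscle markers were lower there for 7 of 12 untreated and 2 of 12 after G-CSF. The part of these other cell types in the differences between the sorts was not tested. Osteoblast markers were not absent from the endothelial sort, where their mean level was 8.07 to 10.46 after G-CSF and 9.84 to 11.31 untreated, against 12.62 to 12.88 and 11.67 to 13.26 in osteoblasts. Neutrophil markers were bright in both sorts. Untreated osteoblast replicate 2 stood apart with a neutrophil list mean of 14.12, against 10.84 and 10.72 in the other untreated osteoblast arrays, and untreated endothelial replicate 1 with a skeletal muscle list mean of 13.29, where the rest of its group had 7.76 to 9.28. In such bulk samples fewer cells of a type and less RNA per cell cannot be told apart.

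The start sites of 6 members are shown because the results turn on these genes: Robo4, Sema3g and Efnb2 were lower in the osteoblast sort than in the endothelial sort, and Slit3, Efna5 and Efna2 fell in endothelial cells after G-CSF. Each window runs from 250 bases before to 50 bases after the gene's start, from RefSeq on GRCm38.p6, and reads 5′ to 3′ on the gene's strand. Capitals mark an ETS core (AGGAAG or CTTCCT), a RUNX core (TGTGGT or ACCACA), a GC box (GGGCGG or CCGCCC) or a TATA box (TATAAA or TTTATA).
The Robo4 window is chr9:37401722-37402021 on the plus strand, and holds 1 ETS core.
Robo4: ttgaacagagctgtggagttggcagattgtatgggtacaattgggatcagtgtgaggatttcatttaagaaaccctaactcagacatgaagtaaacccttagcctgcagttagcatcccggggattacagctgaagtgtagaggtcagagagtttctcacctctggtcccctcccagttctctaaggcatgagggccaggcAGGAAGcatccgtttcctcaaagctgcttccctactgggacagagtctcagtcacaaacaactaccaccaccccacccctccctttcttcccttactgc
The Sema3g window is chr14:31217623-31217922 on the plus strand, and holds 1 ETS core and 1 GC box.
Sema3g: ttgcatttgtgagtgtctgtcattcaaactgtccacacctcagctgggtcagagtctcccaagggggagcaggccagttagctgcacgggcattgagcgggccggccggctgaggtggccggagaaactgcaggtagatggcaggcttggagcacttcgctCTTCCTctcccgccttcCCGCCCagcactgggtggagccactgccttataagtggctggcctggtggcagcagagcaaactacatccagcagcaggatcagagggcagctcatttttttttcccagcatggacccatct
The Efnb2 window is chr8:8661193-8661492 on the minus strand, and holds 3 GC boxes and 1 TATA box.
Efnb2: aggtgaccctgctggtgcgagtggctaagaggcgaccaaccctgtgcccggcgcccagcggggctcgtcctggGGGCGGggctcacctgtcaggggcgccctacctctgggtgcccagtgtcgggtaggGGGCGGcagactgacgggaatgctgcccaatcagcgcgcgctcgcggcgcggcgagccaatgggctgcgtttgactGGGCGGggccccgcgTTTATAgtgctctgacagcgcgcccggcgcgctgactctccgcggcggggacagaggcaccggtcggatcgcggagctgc
The Slit3 window is chr11:35121206-35121505 on the plus strand, and holds 6 GC boxes, of which 2 overlap.
Slit3: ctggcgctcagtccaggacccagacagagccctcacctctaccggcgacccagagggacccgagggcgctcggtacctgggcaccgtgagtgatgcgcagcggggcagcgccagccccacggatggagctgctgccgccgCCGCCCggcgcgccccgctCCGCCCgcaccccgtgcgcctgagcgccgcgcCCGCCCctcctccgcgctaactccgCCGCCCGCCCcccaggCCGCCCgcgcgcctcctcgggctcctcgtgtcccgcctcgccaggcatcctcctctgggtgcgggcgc
The Efna5 window is chr17:62881268-62881567 on the minus strand, and holds 4 GC boxes and 2 ETS cores.
Efna5: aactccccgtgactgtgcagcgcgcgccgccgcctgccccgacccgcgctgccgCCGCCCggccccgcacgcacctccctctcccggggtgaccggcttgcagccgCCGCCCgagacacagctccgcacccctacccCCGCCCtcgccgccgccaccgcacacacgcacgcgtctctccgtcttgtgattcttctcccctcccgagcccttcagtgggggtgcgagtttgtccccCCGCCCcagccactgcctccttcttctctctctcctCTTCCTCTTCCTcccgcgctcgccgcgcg
The Efna2 window is chr10:80179232-80179531 on the plus strand, and holds 2 GC boxes.
Efna2: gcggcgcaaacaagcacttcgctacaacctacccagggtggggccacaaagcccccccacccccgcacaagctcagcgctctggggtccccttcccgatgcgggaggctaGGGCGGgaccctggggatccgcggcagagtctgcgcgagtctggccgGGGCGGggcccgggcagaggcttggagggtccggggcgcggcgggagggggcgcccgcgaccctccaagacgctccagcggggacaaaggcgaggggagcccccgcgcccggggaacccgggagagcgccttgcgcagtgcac
Windows were found for 56 of the 66 members, 72 in all since a gene can have several starts. GC boxes stood in 51 of the 72 windows (70.8%), against 35.7% of all 32851 windows of the same length. ETS cores stood in 27 (37.5%), against 35.4% of all windows. RUNX cores stood in 9 (12.5%), against 16.8%, and TATA boxes in 2 (2.78%), against 13.6%. These matches describe letters and say nothing of the factors.

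The sorts differed in many members, and members of the same family were called in opposite directions among the class 3 semaphorins, plexins, Robos, A-type ephrins and EphB receptors. After G-CSF 28 of the 56 tested members differed, against 31.9% of all genes tested, with 18 higher in osteoblasts than in endothelial cells (32.1%, against 17.5% of all genes) and 10 lower (17.9%, against 14.4%). In untreated mice 22 differed (39.3%, against 26.4%), with 12 higher in osteoblasts (21.4%, against 13.6%) and 10 lower (17.9%, against 12.8%). Of these, 19 were called in both states, each in the same direction both times. The median difference was 0.46 after G-CSF and 0.16 untreated over the members, and 0.02 and 0.00 over all genes. The replicates of the sorts did not overlap for 15 members higher and 11 lower in untreated osteoblasts, against 16.7% and 15.9% of all genes. The split of all genes depends on scaling, since centring each array on its median turned 2351 higher and 1936 lower genes after G-CSF into 1453 and 3974, and 1831 and 1722 in untreated mice into 1239 and 2578.

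**Figure D1:**
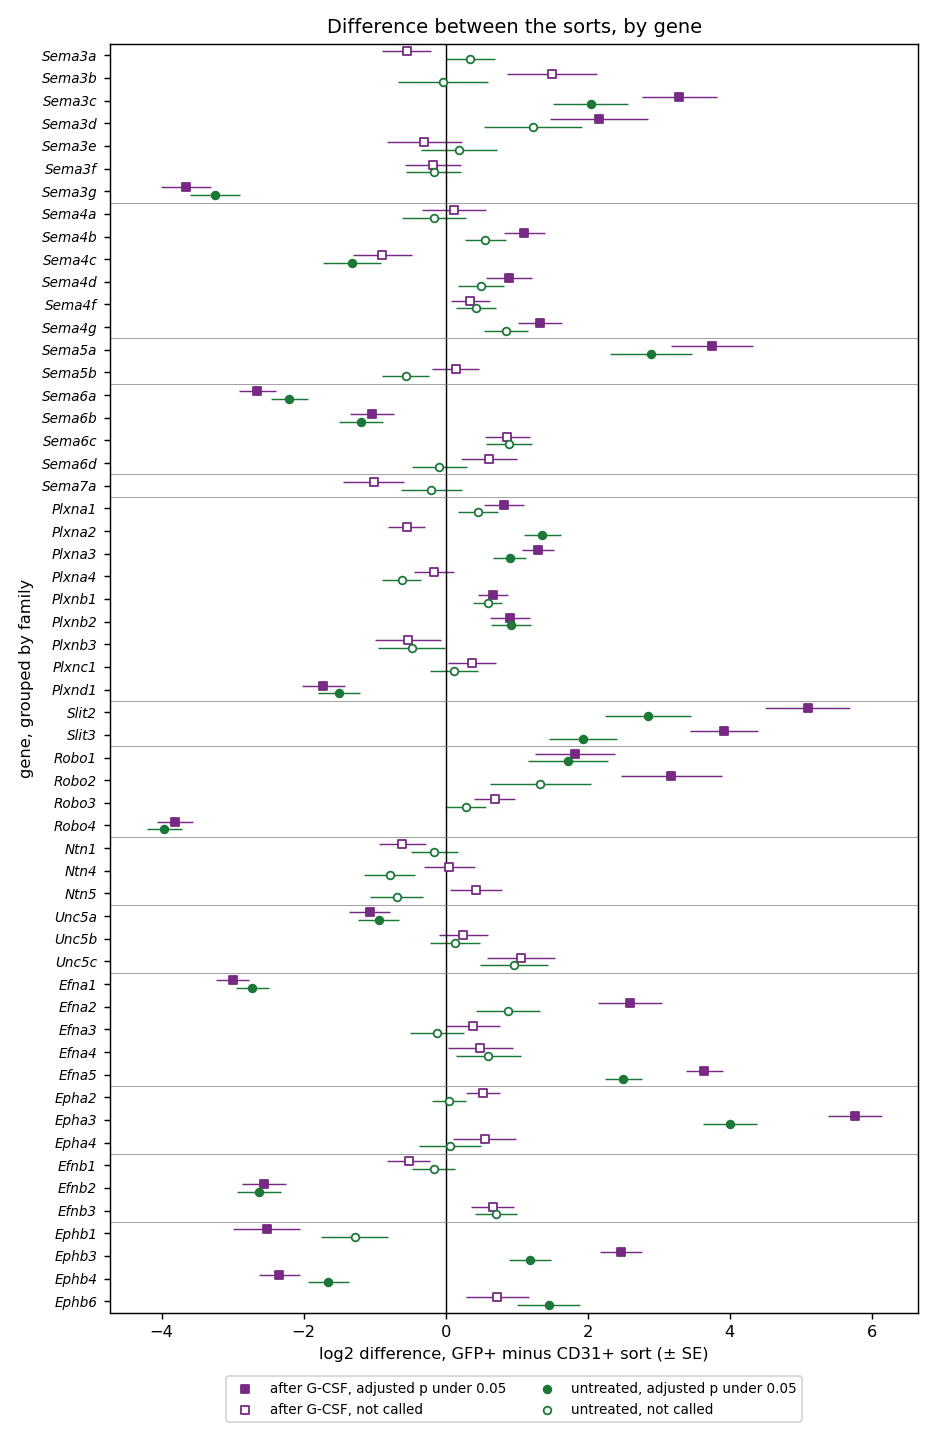
Difference between the osteoblast (GFP+) and endothelial (CD31+) sorts on the log2 scale, with its SE, for the 56 tested members grouped by family, squares after G-CSF and circles in untreated mice, filled where the adjusted p was under 0.05. Members lie on both sides of 0 within most families, from Epha3 at 5.76 after G-CSF and 4.00 untreated to Robo4 at -3.81 and -3.96. For Epha3 and Robo2 all endothelial arrays after G-CSF lay under the filter's limit, so the sizes drawn there are not exact. The endothelial means of Efna2 (5.73) and Sema3c (5.71) after G-CSF also lay under that limit, with the same effect.

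Both tested Slits, Slit2 and Slit3, were higher in osteoblasts, and their receptors were divided between the sorts. Slit2, a secreted Robo ligand, read 13.60, 12.93 and 13.09 in osteoblasts after G-CSF and 13.36, 10.91 and 13.13 in untreated osteoblasts. In endothelial cells Slit2 read 8.99, 7.18, 7.97 and 8.30 after G-CSF and 10.51, 8.23, 10.23 and 9.51 untreated. All osteoblast arrays lay above all endothelial arrays, and the lowest of the osteoblast values was untreated replicate 2, the array with the high neutrophil markers. The Slit2 difference was 5.10 ± 0.60 after G-CSF (adjusted p = 1.37e-05) and 2.85 ± 0.60 untreated (adjusted p = 0.0026). Without untreated osteoblast replicate 2 the untreated difference was 3.63 ± 0.53 (adjusted p = 0.000132). Slit3 differed by 3.92 ± 0.48 after G-CSF (adjusted p = 1.86e-05) and by 1.93 ± 0.48 untreated (adjusted p = 0.00757), and its arrays are given with the G-CSF results.

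Robo4, the Robo of endothelial cells, was 15.6-fold lower in osteoblasts than in endothelial cells of untreated mice. It read 8.62, 8.49 and 9.20 in osteoblasts after G-CSF and 8.35, 9.32 and 8.75 in untreated osteoblasts. In endothelial cells it read 12.22, 12.93, 12.81 and 12.37 after G-CSF and 12.58, 12.72, 12.87 and 12.90 untreated. The sorts were far apart in every array, and the difference was -3.81 ± 0.25 after G-CSF (adjusted p = 6.22e-08) and -3.96 ± 0.25 untreated (adjusted p = 6.63e-08). Robo1, which binds Slits in many tissues, read 10.25, 9.85 and 11.37 in osteoblasts after G-CSF and 10.64, 9.46 and 10.99 in untreated osteoblasts, against 8.32, 8.14, 10.19 and 8.04 in endothelial cells after G-CSF and 8.56, 7.63, 9.38 and 9.02 in untreated ones. It was higher in osteoblasts, by 1.82 ± 0.56 after G-CSF (adjusted p = 0.0215), where replicate 3 of the endothelial cells overlapped the osteoblasts. Untreated, Robo1 was higher by 1.72 ± 0.56 (adjusted p = 0.0338), with no overlap. A dimmer probe set of Robo1 was not called in either state (0.20 ± 0.42 after G-CSF and 0.67 ± 0.42 untreated). Another was called untreated (1.23 ± 0.40, adjusted p = 0.0422 over all probe sets with 1 gene symbol) and not after G-CSF (0.93 ± 0.40). Robo2, a further Slit receptor, read 8.53, 6.77 and 7.51 in osteoblasts after G-CSF and 9.02, 5.04 and 8.02 in untreated osteoblasts, against 4.23, 4.34, 5.04 and 4.08 in endothelial cells after G-CSF and 6.53, 5.88, 5.38 and 6.31 in untreated ones. After G-CSF osteoblasts were higher (adjusted p = 0.00294), by at least 3.54-fold against the filter's limit of 5.78, since all 4 endothelial arrays lay under it. The untreated difference of 1.33 ± 0.71 was not called. Without untreated osteoblast replicate 2, the low one, it was 2.49 ± 0.49 and was called (adjusted p = 0.00134). For Robo3 the differences of 0.69 ± 0.29 after G-CSF and 0.28 ± 0.29 untreated were not called.

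Among the ephrin-A ligands and EphA receptors, Epha3 and Efna5 were higher and Efna1 lower in osteoblasts in both states, and Efna2 was called higher after G-CSF only. Epha3, a receptor for A-type ephrins, read 10.21, 11.19 and 11.07 in osteoblasts after G-CSF and 10.49, 9.47 and 10.41 in untreated osteoblasts. Its endothelial values were 5.47, 4.22, 5.53 and 5.05 after G-CSF and 6.36, 5.45, 6.43 and 6.28 untreated, close to the filter's limit of 5.78. The sorts did not overlap, and osteoblasts were at least 33.0-fold higher after G-CSF, taken against that limit because all 4 endothelial arrays lay under it (adjusted p = 6.22e-08) and 16-fold higher untreated (adjusted p = 2.62e-06). Efna5, an ephrin held in the membrane by a lipid anchor, differed by 3.64 ± 0.26 after G-CSF (adjusted p = 1.24e-07) and by 2.50 ± 0.26 untreated (adjusted p = 5.7e-06). Efna1, an ephrin known from vessels, read 8.47, 8.63 and 8.80 in osteoblasts after G-CSF and 8.68, 8.37 and 8.48 in untreated osteoblasts. In endothelial cells Efna1 read 11.72, 12.02, 11.06 and 11.76 after G-CSF and 11.19, 11.64, 10.97 and 11.14 untreated. No array of either sort crossed over, and the difference was -3.0 ± 0.23 after G-CSF (adjusted p = 2.14e-07) and -2.72 ± 0.23 untreated (adjusted p = 7.74e-07). For the other tested EphA receptors the untreated difference was 0.05 ± 0.24 in Epha2 (95% interval -0.46 to 0.56) and 0.06 ± 0.44 in Epha4 (-0.87 to 1.00), neither called. Efna2 was higher in osteoblasts than in endothelial cells after G-CSF (2.59 ± 0.45, adjusted p = 0.000438), with no overlap. Its endothelial mean of 5.73 there lay under the filter's limit of 5.78, so the size is not exact. The untreated difference of Efna2 was 0.88 ± 0.45 and was not called (adjusted p = 0.17). Efna3 and Efna4 were not called in either state.

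The B family showed the endothelial pattern for both the arterial ligand and the venous receptor. Efnb2, the transmembrane ligand that marks arteries, read 9.17, 9.12 and 9.94 in osteoblasts after G-CSF and 9.40, 8.30 and 9.40 in untreated osteoblasts. Its endothelial values were 11.83, 12.21, 11.89 and 11.95 after G-CSF and 11.10, 12.15, 11.53 and 11.88 untreated. The lowest endothelial array stood above the highest osteoblast array, with a difference of -2.56 ± 0.31 after G-CSF (adjusted p = 1.57e-05) and -2.63 ± 0.31 untreated (adjusted p = 1.76e-05). Ephb4, its receptor and a marker of veins, read 6.84, 7.27 and 7.16 in osteoblasts after G-CSF and 7.14, 7.68 and 7.28 in untreated osteoblasts. In endothelial cells Ephb4 read 9.15, 9.57, 9.94 and 9.05 after G-CSF and 8.48, 9.64, 9.23 and 8.72 untreated. It was 5.06-fold lower in osteoblasts after G-CSF (adjusted p = 2.48e-05) and 3.14-fold lower untreated (adjusted p = 0.000717), with no overlap. Ephb3 was higher in osteoblasts, by 2.47 ± 0.30 after G-CSF (adjusted p = 1.91e-05) and 1.19 ± 0.30 untreated (adjusted p = 0.0089). Ephb6, a receptor that lacks kinase activity, was called higher in untreated osteoblasts (1.45 ± 0.44) and not after G-CSF (0.73 ± 0.44). Ephb1 was called lower in osteoblasts than in endothelial cells after G-CSF (-2.52 ± 0.47), where the osteoblast arrays read 6.78, 4.62 and 7.49. Its untreated difference of -1.28 ± 0.47 had no overlap and was not called (adjusted p = 0.0597). Under quantile normalisation it was called (-1.51, adjusted p = 0.0226). Efnb1 differed by -0.52 ± 0.30 after G-CSF and -0.17 ± 0.30 untreated, and Efnb3 by 0.66 ± 0.30 and 0.71 ± 0.30, none of them called.

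Semaphorins were called in both directions in class 3, and only lower in osteoblasts in class 6. Sema3g, a secreted semaphorin known from endothelium, read 7.85, 7.56 and 7.91 in osteoblasts after G-CSF and 7.35, 8.24 and 7.87 in untreated osteoblasts. Its endothelial values were 11.80, 12.15, 10.81 and 10.99 after G-CSF and 11.06, 11.80, 10.42 and 10.98 untreated. Osteoblasts were 12.7-fold lower after G-CSF (adjusted p = 1.98e-06) and 9.5-fold lower untreated (adjusted p = 9.02e-06), with no overlap. Sema3c, a secreted semaphorin of vessel and heart development, read 9.16, 8.64 and 9.19 in osteoblasts after G-CSF and 7.92, 8.29 and 8.59 in untreated osteoblasts, against 6.01, 5.05, 6.24 and 5.54 in endothelial cells after G-CSF and 6.59, 4.44, 7.53 and 6.36 in untreated ones. It was higher in every osteoblast array, by 3.29 ± 0.53 after G-CSF (adjusted p = 0.000243) and 2.04 ± 0.53 untreated (adjusted p = 0.0106). A dimmer probe set of Sema3c was called after G-CSF (1.62 ± 0.40) and not untreated (0.68 ± 0.40, adjusted p = 0.284 over all probe sets with 1 gene symbol). After G-CSF Sema3d was called higher in osteoblasts than in endothelial cells (2.16 ± 0.69, adjusted p = 0.0268). Sema3a, which in mouse bone protects against bone loss, differed by -0.55 ± 0.35 after G-CSF and 0.35 ± 0.35 untreated, neither called. Its other 2 probe sets were lower in osteoblasts after G-CSF, at -1.41 ± 0.45 (adjusted p = 0.0333 over all probe sets with 1 gene symbol) and -1.60 ± 0.53 (0.0398), and were not called untreated (-0.80 ± 0.45 and -0.45 ± 0.53). Median centring called Sema3a lower in osteoblasts than in endothelial cells after G-CSF (-0.93, adjusted p = 0.0388). Sema3f, a secreted semaphorin, differed by -0.18 ± 0.39 after G-CSF and -0.17 ± 0.39 untreated in its brightest probe set, of a design that can bind other transcripts, and was not called. Its other 2 probe sets gave lower values in osteoblasts. One was called in both states (-1.70 ± 0.36 after G-CSF, adjusted p = 0.00289 over all probe sets, and -2.18 ± 0.36 untreated, 0.000484). The other was called untreated (-1.59 ± 0.41, 0.0121) and not after G-CSF (-1.16 ± 0.41, 0.0533). With such shared designs left out, Sema3f was called lower in both states, with an adjusted p of 0.0411 after G-CSF and 0.00952 untreated.

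Sema5a, a transmembrane semaphorin with thrombospondin repeats, read 11.08, 9.44 and 10.19 in osteoblasts after G-CSF and 12.08, 9.59 and 11.21 in untreated osteoblasts. In endothelial cells Sema5a read 7.52, 5.29, 6.15 and 6.96 after G-CSF and 8.64, 7.46, 8.09 and 8.08 untreated. Osteoblasts were higher in all arrays, by 3.75 ± 0.58 after G-CSF (adjusted p = 0.000172) and 2.89 ± 0.58 untreated (adjusted p = 0.00187). A dimmer probe set of Sema5a was called in both states (3.29 ± 0.56 after G-CSF and 2.51 ± 0.56 untreated). Its probe sets with means of 6.00 and 5.17 were not called in either state. They gave 1.70 ± 0.66 and -0.11 ± 0.33 after G-CSF, and 0.34 ± 0.66 and 0.11 ± 0.33 untreated. Sema6a, a transmembrane semaphorin, averaged 7.12 ± 0.44 in osteoblasts after G-CSF and 7.58 ± 0.21 in untreated osteoblasts, against 9.78 ± 0.36 in endothelial cells after G-CSF and 9.79 ± 0.31 in untreated endothelial cells (SD, n = 3, 3, 4 and 4). It was 6.29-fold lower in osteoblasts after G-CSF (adjusted p = 2.4e-06) and 4.6-fold lower untreated (adjusted p = 2.02e-05). A dimmer probe set of Sema6a was not called in either state (-0.04 ± 0.53 after G-CSF and 0.05 ± 0.53 untreated). Another was called lower untreated (-1.83 ± 0.43, adjusted p = 0.0073 over all probe sets) and not after G-CSF (-1.15 ± 0.43). The mean of its probe sets kept both calls, at -1.28 after G-CSF and -1.33 untreated. Sema6b was also lower in both states (-1.03 ± 0.31 and -1.19 ± 0.31). Of the class 4 semaphorins, Sema4c was called lower in untreated osteoblasts than in untreated endothelial cells (-1.32 ± 0.41). After G-CSF Sema4b, Sema4d and Sema4g were called higher in osteoblasts than in endothelial cells (1.11 ± 0.29, 0.89 ± 0.32 and 1.33 ± 0.31). Sema4d, the plexin B1 ligand that in mice restrains bone formation, had a difference of 0.50 ± 0.32 untreated (adjusted p = 0.279). Sema6d showed no call between the sorts, at 0.61 ± 0.39 after G-CSF and -0.09 ± 0.39 untreated. Sema7a, whose product is held by a lipid anchor, differed by -1.01 ± 0.43 after G-CSF (adjusted p = 0.0908) and -0.20 ± 0.43 untreated, not called. After G-CSF it was called lower in osteoblasts than in endothelial cells under median centring (-1.40, adjusted p = 0.0184) and with only the arrays compared (0.0285). The same held without endothelial replicate 3 (-1.28, 0.0404) and without both untreated osteoblast replicate 2 and untreated endothelial replicate 1 (0.0229).

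Of the 9 plexins, the semaphorin receptors, 4 were called higher in osteoblasts after G-CSF and 3 untreated, and plexin D1 was called lower in both states. Plxnd1 read 10.21, 10.68 and 11.47 in osteoblasts after G-CSF and 11.04, 11.14 and 11.16 in untreated osteoblasts, against 12.31, 12.62, 13.07 and 12.03 in endothelial cells after G-CSF and 12.11, 13.01, 12.71 and 12.62 in untreated ones. Every osteoblast array was lower, with a difference of -1.72 ± 0.30 after G-CSF (adjusted p = 0.000424) and -1.50 ± 0.30 untreated (adjusted p = 0.00163). Plxna3 and Plxnb2 were higher in osteoblasts in both states, at 1.30 ± 0.23 and 0.91 ± 0.28 after G-CSF and 0.90 ± 0.23 and 0.92 ± 0.28 untreated. Plxna1 and Plxnb1, the receptor of Sema4d, were called after G-CSF (0.82 ± 0.28 and 0.67 ± 0.21), and not untreated (0.46 ± 0.28 and 0.59 ± 0.21). Plxna2 was higher in untreated osteoblasts (1.36 ± 0.26, adjusted p = 0.00131) and had a difference of -0.55 ± 0.26 after G-CSF that was not called (adjusted p = 0.128). Of its other 3 probe sets, 2 were called lower in osteoblasts after G-CSF (-0.96 ± 0.30, adjusted p = 0.0336 over all probe sets, and -1.15 ± 0.29, 0.00897). Plxna2 was also called lower after G-CSF under median centring (-0.93, adjusted p = 0.00812), with the mean of its probe sets (-0.82, 0.0327) and without osteoblast replicate 3 (-0.85, 0.0246). For Plxna4 the difference after G-CSF was -0.16 ± 0.28, not called, while another probe set was lower (-1.39 ± 0.43, adjusted p = 0.0307 over all probe sets). For Plxnc1, the receptor of Sema7a, the difference was 0.37 ± 0.34 after G-CSF and 0.12 ± 0.34 untreated, not called in either state.

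Of the 6 tested netrins and Unc5 receptors, Unc5a alone was called between the sorts. It was lower in osteoblasts, at -1.07 ± 0.29 after G-CSF (adjusted p = 0.0115) and -0.94 ± 0.29 untreated (adjusted p = 0.0277). Ntn1, the netrin best known from axon guidance, differed by -0.16 ± 0.33 untreated (95% interval -0.86 to 0.54), and Ntn4, a netrin of basement membranes, by -0.79 ± 0.36 (-1.55 to -0.02). Unc5b, an Unc5 receptor of vessels, averaged 11.93 ± 0.59 in untreated osteoblasts (SD, n = 3) and 11.80 ± 0.50 in untreated endothelial cells (SD, n = 4), and Unc5c differed by 0.96 ± 0.48 (adjusted p = 0.165).

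In all, 12 members were called between the sorts in 1 treatment state and not in the other. Whether their difference changed with treatment was tested, and none was called over all arrays, with an adjusted p from 0.276 for Plxna2 to 1.0. Without untreated osteoblast replicate 2, Plxna2 was called (adjusted p = 0.0365). Several calls between the sorts were lost when single arrays were left out. After G-CSF this held for Plxna1 and Plxnb2 (kept in 2 of 7 fits, lost without osteoblast replicates 2 or 3 or endothelial replicates 1, 2 or 4, highest adjusted p 0.169 and 0.0828). Plxnb1 and Sema3d kept the call in 3 of 7 fits, both lost without osteoblast replicate 2 or endothelial replicates 2 or 3, Plxnb1 also without osteoblast replicate 3 and Sema3d without osteoblast replicate 1 (highest adjusted p 0.0973 and 0.123). Robo1 lost it without osteoblast replicate 3 or endothelial replicates 1, 2 or 4 (up to 0.116), and Sema4d without any array but endothelial replicate 4 (up to 0.162). Sema6b lost it without osteoblast replicate 1 or endothelial replicate 4 (up to 0.0949) and Unc5a without osteoblast replicate 1 (0.0518). In untreated mice Robo1 lost the call without osteoblast replicates 1 or 3 or endothelial replicates 1 or 2 (up to 0.142), and Plxnb2 without osteoblast replicate 3 or endothelial replicates 1, 2 or 4 (up to 0.124). Sema4c lost it without osteoblast replicates 1 or 2 or endothelial replicates 3 or 4 (up to 0.107), Unc5a without osteoblast replicates 1 or 3 or endothelial replicate 3 (up to 0.104), and Ephb6 without osteoblast replicates 1 or 3 or endothelial replicate 4 (up to 0.0895). Ephb3 lost it without osteoblast replicate 3 (0.0594) and Sema6b without osteoblast replicate 1 (0.0528). Other calls were gained. Without untreated osteoblast replicate 2, Robo2, Sema3d (2.00 ± 0.67, adjusted p = 0.0321) and Plxnb1 (0.75 ± 0.22, 0.0171) were called higher and Sema4a lower (-0.93 ± 0.29, 0.0246) in untreated osteoblasts. In osteoblasts against endothelial cells after G-CSF, Efnb1 was called lower without osteoblast replicate 3 (0.0333) and Epha4 higher without osteoblast replicate 1 (0.0214). Median centring ended the Plxnb2 call in both states and those of Plxna1, Plxnb1, Sema3d and Sema4d after G-CSF.

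**Figure D2:**
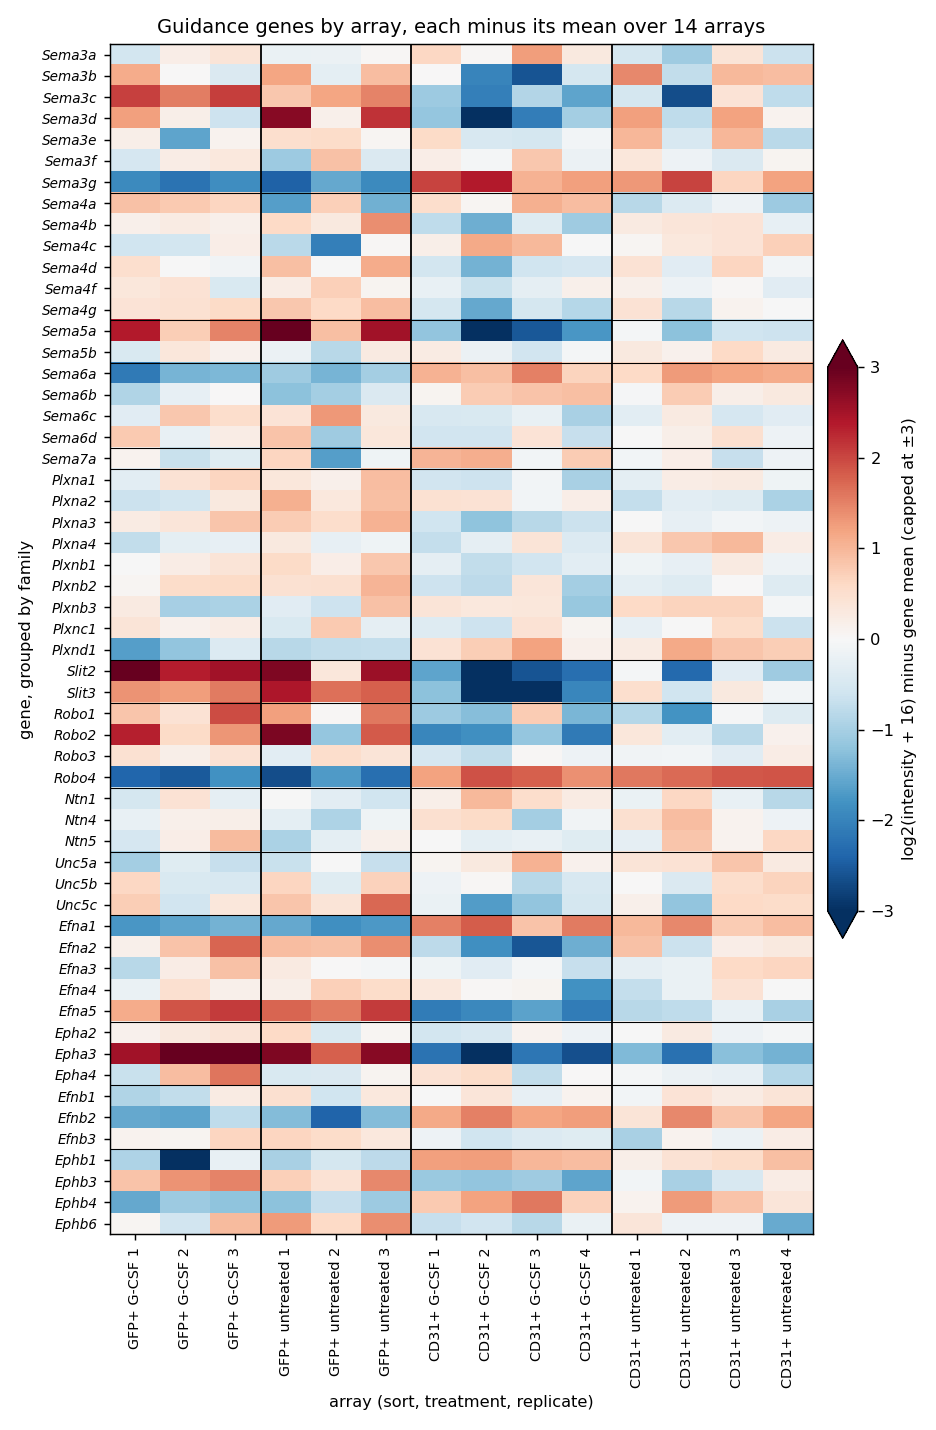
Level of each of the 56 tested members on each of the 14 arrays, as log2(intensity + 16) minus the gene's mean over the 14 arrays (red higher, blue lower, capped at 3), with genes grouped by family and arrays by sort, treatment and replicate. Robo4, Sema3g, Efna1 and Efnb2 are blue across the osteoblast arrays, Epha3, Efna5, Slit2 and Slit3 are red there, and Slit3 is blue in all 4 endothelial arrays after G-CSF.

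In endothelial cells G-CSF was accompanied by lower Slit3, Efna5 and Efna2, and no member was called higher. The 3 lower members are 5.36% of the 56 tested, against 1.14% of all genes lower, 0.454% higher and 1.6% in either direction. The groups did not overlap for 3 members higher and 10 lower, against 4.65% and 5.62% of all genes. Over the members 41 of 56 had a negative change, with a median of -0.29, against a median of -0.05 over all genes. At an unadjusted p under 0.05 there were 20 members (35.7%), against 13.1% of all genes. Among these, Epha3, Robo2 and Efna2 had endothelial means after G-CSF under the filter's limit of 5.78 (5.07, 4.42 and 5.73). With the replicate numbers as a block, 9 members were called lower and 2 higher, against 3.87% and 1.03% of all genes. Centring arrays on their median or matching their quantiles shifted the split of all genes in this comparison, so that 61 higher and 154 lower genes became 83 and 56 under centring and 37 and 67 under quantiles.

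Slit3, a secreted Robo ligand that osteoblasts make in mouse bone, read 7.82, 5.21, 5.89 and 7.09 in endothelial cells after G-CSF and 9.56, 8.45, 9.34 and 8.97 in untreated endothelial cells. In osteoblasts it read 10.39, 10.29 and 10.60 after G-CSF and 11.48, 10.71 and 10.85 untreated. Every endothelial array after G-CSF lay below every untreated one, and replicate 2 was the lowest of each group. The change was -2.58 ± 0.44 or 5.97-fold (adjusted p = 0.0151, and 0.00242 with the replicate block). Slit2 read lower as well, at -1.51 ± 0.56 (adjusted p = 0.221, and 0.0235 with the replicate block).

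Efna5 read 7.05, 7.22, 7.54 and 7.06 in endothelial cells after G-CSF and 8.33, 8.40, 8.92 and 8.18 in untreated endothelial cells. In osteoblasts it read 10.27, 11.05 and 11.26 after G-CSF and 10.89, 10.72 and 11.25 untreated. The endothelial groups did not overlap, and the change was -1.24 ± 0.24 or 2.36-fold lower (adjusted p = 0.0215, and 0.0054 with the block). Another, dim probe set of Efna5 with a mean of 5.00 changed by -0.05 ± 0.36.

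Efna2, an A-type ephrin, read 6.61, 5.57, 4.83 and 5.93 in endothelial cells after G-CSF and 8.29, 6.76, 7.61 and 7.70 in untreated endothelial cells. Its osteoblast values were 7.56, 8.25 and 9.15 after G-CSF and 8.33, 8.28 and 8.81 untreated. The highest endothelial array after G-CSF, replicate 1, stayed just under the lowest untreated one, replicate 2. The change was -1.86 ± 0.42 (adjusted p = 0.0399, and 0.0072 with the block), and its dimmer probe set changed by -0.68 ± 0.33. The mean of 5.73 after G-CSF lay under the filter's limit of 5.78, so the size of the change is not exact.

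These calls rested on few arrays. Without untreated endothelial replicate 1, 3 or 4 no member was called, without G-CSF replicate 2 there was 1, and without untreated replicate 2 there were 6. The counts over all genes moved too, from 61 higher and 154 lower over all arrays. They were 14 and 17 without untreated replicate 3, and 13 and 15 without untreated replicate 4. Without G-CSF replicate 2 they were 23 and 34, and without untreated replicate 2 they were 65 and 323. Without untreated replicate 1, the array with the skeletal muscle markers, the change was -2.42 ± 0.48 for Slit3 (adjusted p = 0.064), -1.28 ± 0.27 for Efna5 (0.0779) and -1.62 ± 0.44 for Efna2 (0.143). In that fit 15 genes were called higher and 16 lower over all genes. Each change kept its direction in all fits that left out an array.

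Markers of osteoblasts and fibroblasts moved the same way in the same endothelial arrays. Of 14 osteoblast markers 3 were called lower after G-CSF, with a median change of -1.66 and a list mean of 8.07 to 10.46, against 9.84 to 11.31 untreated. Of 12 fibroblast and tendon markers 2 were called lower, with a median of -1.0 and a list mean of 6.95 to 8.83, against 8.62 to 9.51. Of 20 endothelial markers none was called, with a median of -0.02 and a list mean of 12.67 to 13.09, against 12.77 to 13.22. Of 7 erythroid markers 2 were called lower, with a list mean of 6.93 to 9.67 after G-CSF, against 9.66 to 10.64. Replicate 2 had the lowest osteoblast and fibroblast list means in both endothelial groups. It also had the lowest Slit2, Slit3, Sema3d and Sema5a in both. Efna5 was lowest in other arrays, G-CSF replicate 1 (7.05) and untreated replicate 4 (8.18). Efna2 was lowest in G-CSF replicate 3 (4.83) and untreated replicate 2 (6.76). The part of these markers in the changes of the guidance genes was not tested. The comparison of the sorts shares its endothelial arrays with the G-CSF comparison, so the higher level of Slit3 and Efna5 in osteoblasts and their fall in endothelial cells are not independent values.

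Further members with large endothelial changes were not called over all 14 arrays without the block. With only the endothelial arrays in the fit, Sema3d (adjusted p = 0.0494), Sema4b (0.0383) and Robo2 (0.0385) were called lower and Plxna2 (0.0326) and Sema4a (0.0307) higher. Every endothelial array of Robo2 after G-CSF lay under the filter's limit of 5.78, and the untreated mean was 6.02. Against that limit its fall is at least 1.18-fold, and the size is not exact. Median centring called Plxna2 higher (0.0475). Sema3d, a secreted semaphorin, read 7.86, 5.66, 6.94 and 7.98 after G-CSF and 10.25, 8.25, 10.22 and 9.11 untreated, with no overlap and a change of -2.35 ± 0.64 (adjusted p = 0.0841, and 0.0131 with the block). Sema4b read 7.96, 7.26, 8.33 and 7.64 after G-CSF and 8.99, 9.09, 9.13 and 8.48 untreated, with no overlap and a change of -1.12 ± 0.27 that stood at the threshold (adjusted p = 0.05, and 0.0273 with the block). The block also called Sema3b, Sema4d and Sema5a lower. In the fit without it their changes were -1.92 ± 0.59, -0.93 ± 0.30 and -1.59 ± 0.54 (adjusted p = 0.12, 0.138 and 0.167). The block called Sema3a (adjusted p = 0.0134 with the block and 0.14 without) and Plxna2 (0.0449 with the block and 0.0947 without) higher. Their changes without the block were 1.01 ± 0.32 and 0.85 ± 0.24. Sema3a binds plexin A receptors together with neuropilin 1, and Plxna2 encodes a plexin of that kind. Under G-CSF 6 members that were lower in osteoblasts than in endothelial cells were not called in endothelial cells, with changes of -0.18 ± 0.23 in Robo4, 0.37 ± 0.33 in Sema3g, 0.30 ± 0.28 in Efnb2, 0.41 ± 0.27 in Ephb4, -0.11 ± 0.28 in Plxnd1 and 0.40 ± 0.21 in Efna1.

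**Figure D3:**
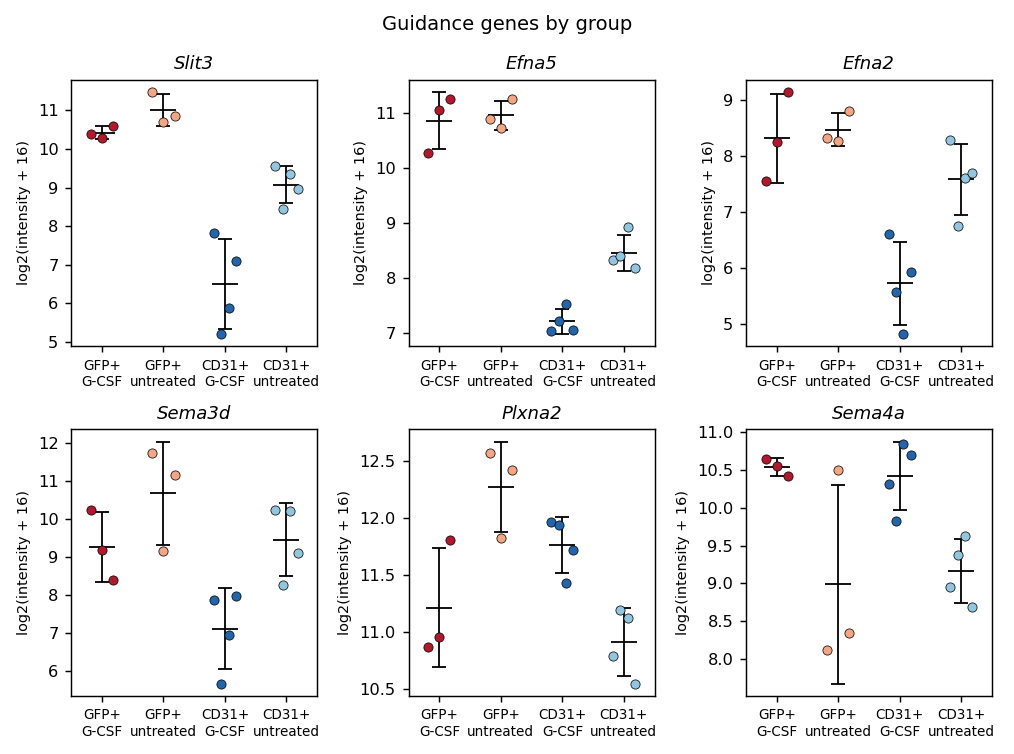
Level of 6 members on the log2(intensity + 16) scale, with points for arrays and bars for the mean ± SD, in osteoblasts (GFP+) and endothelial cells (CD31+) after G-CSF and untreated; each panel has its own axis, which does not start at 0. Slit3, Efna5 and Efna2 lie lower in endothelial cells after G-CSF than in untreated ones, and the Sema4a points of untreated osteoblasts hold 1 array at 10.5 and the others at 8.12 and 8.34.

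**Figure D4:**
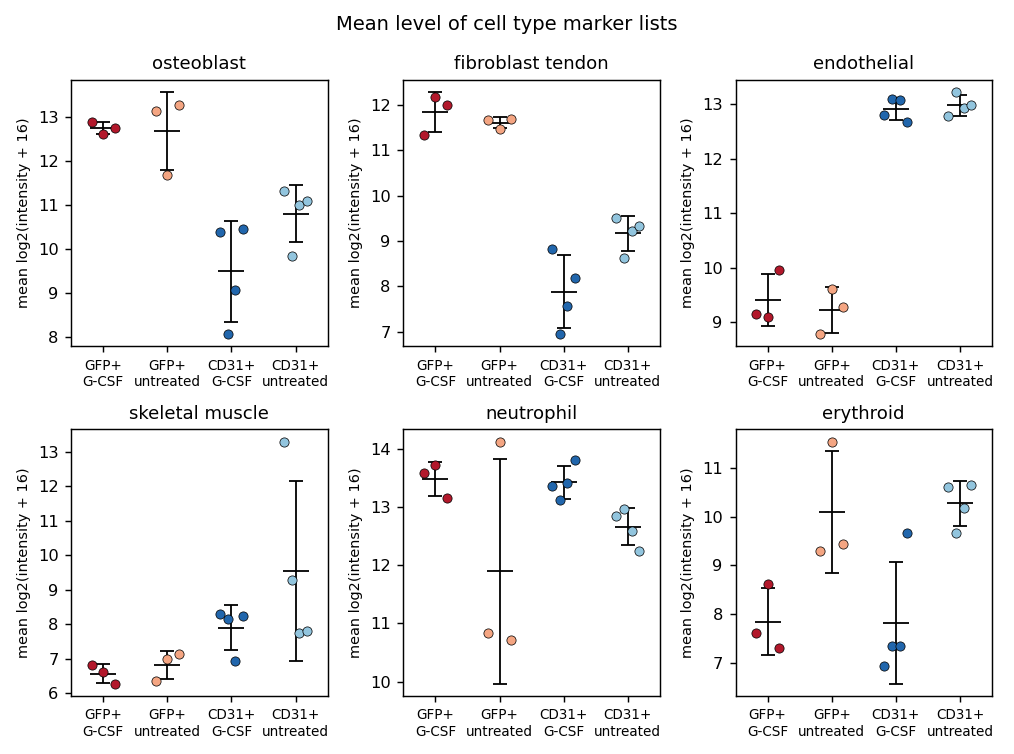
Mean log2(intensity + 16) over the tested genes of 6 marker lists, with points for arrays and bars for the mean ± SD, in both sorts after G-CSF and untreated; each panel has its own axis, which does not start at 0. The osteoblast list spans 8.07 to 10.46 in endothelial cells after G-CSF and 9.84 to 11.31 in untreated ones, and single arrays stand apart in the neutrophil, erythroid and skeletal muscle lists.

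In osteoblasts no member was called under G-CSF in the limma fit, where 0.186% of all genes were called higher and 0.0446% lower. At an unadjusted p under 0.05 there were 2 members, Plxna2 and Sema4a (3.57%, against 8.86% of all genes). The median change was -0.19 over the members and -0.04 over all genes, and the changes ran from -1.42 for Sema3d to 1.56 for Sema4a. The median SE of a member's change was 0.37. The groups did not overlap for 1 member higher (Sema3c, against 3.61% of all genes) and 4 lower (Plxna2, Sema4b, Sema4g and Slit3, against 5.69%). The replicate block also gave 0 members. Sema3d read 10.23, 9.18 and 8.39 in osteoblasts after G-CSF and 11.74, 9.15 and 11.17 in untreated osteoblasts, and the groups overlapped (adjusted p = 0.631). Among the other members, Ephb6 changed by -0.94 ± 0.47 and Epha4 by 0.89 ± 0.47.

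Plxna2 read 10.87, 10.96 and 11.81 in osteoblasts after G-CSF and 12.57, 11.82 and 12.42 in untreated osteoblasts. All 3 arrays after G-CSF were below the untreated ones, though the highest, at 11.81, nearly met the lowest untreated value of 11.82. The change was -1.06 ± 0.28 (adjusted p = 0.2). In endothelial cells it read 11.96, 11.94, 11.43 and 11.72 after G-CSF and 10.79, 11.19, 11.12 and 10.55 untreated, again with no overlap but in the other direction (0.85 ± 0.24). The other 3 probe sets of Plxna2 had the same signs in each sort. The difference between these changes was -1.91 ± 0.37, with an adjusted p of 0.276, the lowest among the members.

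Sema4a, a semaphorin of immune cells and vessels, read 10.65, 10.56 and 10.42 in osteoblasts after G-CSF and 8.12, 10.5 and 8.34 in untreated osteoblasts. Untreated replicate 2, the array with the high neutrophil markers, lay among the values after G-CSF and far above the other untreated arrays. The change was 1.56 ± 0.48 (adjusted p = 0.277). Without that array it was 2.31 ± 0.31 (adjusted p = 0.000544), and Plxna2 changed by -1.28 ± 0.28 (adjusted p = 0.0188), so both were called in a fit that called 3.17% of all genes higher and 0.364% lower. In endothelial cells Sema4a read 10.31, 9.83, 10.85 and 10.70 after G-CSF and 8.95, 9.38, 9.63 and 8.69 untreated, with no overlap and a change of 1.26 ± 0.42 (adjusted p = 0.153), and its other probe set changed by 1.72 ± 0.63. The neutrophil list mean was 13.15 to 13.71 in osteoblasts after G-CSF, against 10.84, 14.12 and 10.72 untreated, and 13.11 to 13.80 in endothelial cells after G-CSF, against 12.24 to 12.96 untreated. Its part in the Sema4a values was not tested.

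No member, and 0.0% of all genes, was called for a difference of the G-CSF change between osteoblasts and endothelial cells in the limma fit. At an unadjusted p under 0.05 there were 7 members (12.5%, against 4.62% of all genes), namely Efna2, Efna5, Epha3, Ephb3, Slit2, Slit3 and Plxna2. The endothelial means of Epha3 (5.07) and Efna2 (5.73) after G-CSF lay under the filter's limit of 5.78, so the sizes of their differences are not exact. The change of Slit3 was -0.59 ± 0.51 in osteoblasts and -2.58 ± 0.44 in endothelial cells, a difference of 1.99 ± 0.68 (95% interval 0.54 to 3.43, adjusted p = 0.87). For Efna5 the changes were -0.10 ± 0.28 and -1.24 ± 0.24, a difference of 1.14 ± 0.36 (adjusted p = 0.785). Without untreated osteoblast replicate 2 the difference for Plxna2 was -2.13 ± 0.36 and was called (adjusted p = 0.0365), where 0.134% of all genes were called higher and 0.0223% lower.

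Genes that act beside these receptors were read from a fixed list of coreceptors and further ligands and a list of intracellular effectors. Of 20 tested coreceptors 3 were higher (15.0%, against 13.6% of all genes) and 5 lower (25.0%, against 12.8%) in untreated osteoblasts than in untreated endothelial cells. The neuropilins parted, with Nrp1, the coreceptor of Sema3a and of VEGF, lower in osteoblasts (-1.10 ± 0.27, adjusted p = 0.00766) and Nrp2, the coreceptor of Sema3f, higher (1.44 ± 0.45, adjusted p = 0.0277). Neo1, the neogenin receptor of netrins, was higher in osteoblasts (1.83 ± 0.30, adjusted p = 0.000401), and so was Flrt2, a ligand of Unc5 receptors (3.30 ± 0.29, adjusted p = 1.1e-06). No coreceptor was called under G-CSF in either sort, and the endothelial changes of Neo1 (-1.06 ± 0.28) and Nrp2 (-1.43 ± 0.42) had adjusted p values of 0.0779 and 0.103.

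Of 54 tested effectors 11 were higher (20.4%, against 13.6% of all genes) and 13 lower (24.1%, against 12.8%) in untreated osteoblasts than in untreated endothelial cells. Those lower included Arhgef15, an ephexin that acts under Eph receptors (-4.35 ± 0.29, adjusted p = 9.28e-08), and Ablim1, an actin-binding protein (-3.97 ± 0.36, adjusted p = 1.64e-06). Those higher included Dpysl3, of the family that relays semaphorin signals to the cytoskeleton (2.00 ± 0.20, adjusted p = 4.41e-06), and Srgap3, a GTPase-activating protein that binds Robos (1.61 ± 0.28, adjusted p = 0.000651). Under G-CSF 2 effectors were called lower in endothelial cells (3.70%, against 1.14% of all genes) and none in osteoblasts. Srgap3 fell to a mean of 6.91 ± 0.31 in endothelial cells after G-CSF, against 8.36 ± 0.49 untreated (SD, n = 4 each), a change of -1.44 ± 0.26 (adjusted p = 0.0191). Dapk1, a kinase that acts under the netrin receptor Unc5b, fell to 7.90 ± 0.40, against 8.97 ± 0.23 (SD, n = 4 each), a change of -1.08 ± 0.22 (adjusted p = 0.0324).

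The 10 members under the filter were Epha1, Epha5, Epha6, Epha7, Epha8, Epha10, Slit1, Ntn3, Unc5d and the antisense RNA Plxna4os1. Their means over the 14 arrays were 4.81 to 5.60, and the highest value on any array was 6.82. Among the members tested, the dimmest was Sema5b with a mean of 5.84, just above the filter's limit of 5.78. The 10 were measured by their brightest probe set and entered no test.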

How the data were processed

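RNA of 14 sorted samples was measured on Affymetrix mouse arrays, 1 array a sample. The deposited values are intensities on a linear scale, 1 for each of 45101 probe sets, made with Affymetrix Expression Console 1.1 per the submitters' processing notes. How probes were summarised is not given in the sources used here. Trimmed means (2%) were alike on all arrays, so the values were not normalised again. Log2 of intensity plus 16 was taken. Probe sets in the dimmest fraction of 0.333 were left out, control probe sets (64) and those with several gene symbols (932) or none (9160) entered no gene test, and the brightest remaining probe set stood for its gene. All arrays entered a linear model of 4 group means (limma 3.58.1, R 4.3.3), tested 2-sided with a variance prior that follows intensity, with Benjamini-Hochberg adjustment over 13450 genes. The fit was tested on simulated data, where it recovered 27% of changes of log2 size 1 and 71% of size 2 for G-CSF in osteoblasts. For G-CSF in endothelial cells it recovered 46% and 87%, and between the untreated sorts 27% and 87%. In these runs 2 to 5 unchanged genes were called. Groups and replicate numbers come from the labels. Deviations of arrays with the same number correlated by 0.102 to 0.377 between treatments within each sort, and 13 of 14 arrays correlated best with their own number, so the number was used as a block, with its value printed beside a result where it changes a call. Alternatives were other pseudocounts, scalings, filters, probe set rules and priors, the number of printed decimals as a term (osteoblast replicates 2 and 3 carry more), and each array left out. The genes named are every member called under G-CSF, the 4 largest changes where none was called, the 14 largest called differences between the untreated sorts and a fixed set of key genes. The members and lists were chosen with earlier results of these data known. Promoter windows are RefSeq's.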

Additional observations from a re-analysis of the deposited data

Results flagged for a closer look

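In 4 of 74 groups of 4 endothelial arrays looked at, over 37 named members, 1 array stood so far from the others that its gap exceeded Dixon's 95% critical value. Chance flags about 1 in 20 groups. Robo1 read 10.19 in G-CSF replicate 3, against 8.04 to 8.32 in the other G-CSF arrays. Sema6d read 12.50 in the same array, against 11.41 to 11.53. Sema4d read 8.26 in G-CSF replicate 2, against 9.07 to 9.17 in the other G-CSF arrays. Epha3 read 5.45 in untreated replicate 2, against 6.28 to 6.43 in the other untreated arrays.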

How the results depend on the processing

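No change or difference of a named member turned its direction past the threshold in any alternative, and the arrays' number limits all counts. In osteoblasts under G-CSF the members called higher and lower were 0 to 1 each when an array was left out, with the 1 coming without untreated replicate 2, and 1 each when that array and untreated endothelial replicate 1 were left out together. In endothelial cells under G-CSF the members called lower, 3 in the main setting, were 0 to 6 with an array left out and 1 under quantile normalisation. They were 6 with only the arrays compared, 9 with the replicate block within each sort and 0 at an adjusted p under 0.01. Over all genes, those called lower were 154 in the main setting, 15 to 323 with an array left out and 67 under quantile normalisation. They were 222 with only the arrays compared and 521 with the block. Members called higher in these cells were 0 with any array left out and 1 when centred on the array median. They were 2 with only the arrays compared, 2 with the replicate block and 1 with both arrays out. The replicate block changed no other count of calls past 1.5 times. Efna2 lost its call at a pseudocount of 64, under quantile normalisation, under median centring and with both arrays out, and Efna5 under quantile normalisation. Between untreated sorts 12 members were higher and 10 lower, 9 to 15 and 7 to 10 with an array left out, and 7 higher with the number of decimals as a term. Of these 22 calls, 15 were kept with every array left out in turn and 13 in every setting. After G-CSF 18 were higher and 10 lower, 12 to 18 and 8 to 12 with an array left out, and 16 lower when centred on the array median. Centring acts on array medians of 6.57 to 6.71 in endothelial cells after G-CSF and 6.79 to 6.84 in untreated ones. For the difference of the G-CSF changes 0 to 1 members were called lower with an array left out. The alternative with only the arrays compared gives no value for that difference. Replicate numbers correlated by -0.0115 to 0.271 across the sorts. The causes were not tested.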
